A study of Rattus norvegicus with 10 samples.

Results

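The chaperones of the endoplasmic reticulum (ER), the cytosol and the mitochondria described here are 10 genes: Canx, Calr, Hspa5, Hsp90b1 and Pdia3 of the ER, Hsph1, Hspa8, Dnaja1 and Dnaja2 of the cytosol, and Hspd1 of the mitochondria. Every probe set annotated to one of these symbols and to no other gene was taken. This gave 25 of the 8740 non-control probe sets on the array, for 9 of the 4736 genes with a probe set of their own: 16 for the 5 ER genes, 7 for 3 of the 4 cytosolic genes and 2 for Hspd1. Both probe sets of Hspa8 carry a second gene symbol, so no level of Hspa8 is given. RNA of rat brain was measured on 10 single-colour oligonucleotide arrays, and a value is the expression index of the program dChip, an intensity on a linear scale. Each of 5 regions had 1 array labelled cocaine-treated and 1 labelled saline-treated control: the amygdala (AMY), caudate putamen (CPU), nucleus accumbens (NA), prefrontal cortex (PFC) and ventral tegmental area (VTA). The sources used here do not give the strain, age, dose, route, length of treatment, time of dissection or number of animals behind a sample, so p-values measure only the spread between these arrays, which may be technical. The genes were chosen from results of these same arrays in which cocaine and saline had been compared, among them lower values of Canx, Hsp90b1, Dnaja2, Hsph1 and Dnaja1 on cocaine arrays. Their cocaine values are therefore a description, and tests are given for differences between regions. Region means include the cocaine arrays, so these tests are not fully independent of the choice of genes either.

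Chaperones help proteins fold and keep them from clumping. In the ER, Hspa5 (BiP, the Hsp70 of the ER) and Hsp90b1 (Grp94, its Hsp90) bind unfolded chains, calnexin (Canx) and calreticulin (Calr) hold glycoproteins through their sugars, and Pdia3 (ERp57) works with them to form disulfide bonds. In the cytosol, Dnaja1 and Dnaja2 are J-domain proteins that hand clients to the Hsp70 protein Hspa8, and Hsph1 (Hsp110) lets the Hsp70 exchange its nucleotide, while Hspd1 (Hsp60) is the folding chamber of the mitochondrial matrix. Cells raise ER chaperones when unfolded proteins build up in the ER, through the factors ATF6 and XBP1 acting with NF-Y at ER stress elements. They raise cytosolic and mitochondrial chaperones through heat shock factors at heat shock elements.

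The start windows of the genes are shown because the compartments differed there. RefSeq sequences of assembly GRCr8, from 250 bases before to 50 bases after the annotated gene start, were available for 8 of the 10 genes, all except Pdia3 and Dnaja2. They were searched on both strands for the ER stress element, which is CCAAT and CCACG with 9 bases between them. It was found in 4 of 4 ER genes and in 0 of 4 genes of the cytosol and mitochondria, while 22 of all 33465 rat windows of this length held it, which is 0.0657%. In the sequences below, written 5′ to 3′ on the strand of the gene, capitals mark the 2 arms of the element. Where it lies on the opposite strand, as in Calr and in the second site of Hsp90b1, the arms read CGTGG and ATTGG.
Hspa5, chr3:38452953-38453011, plus strand: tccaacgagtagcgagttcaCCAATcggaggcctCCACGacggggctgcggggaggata
Hsp90b1, first site, chr7:23012431-23012489, minus strand: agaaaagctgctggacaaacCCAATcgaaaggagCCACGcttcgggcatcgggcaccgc
Hsp90b1, second site, chr7:23012327-23012385, minus strand: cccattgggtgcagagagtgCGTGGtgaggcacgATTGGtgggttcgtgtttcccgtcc
Canx, chr10:35158049-35158107, minus strand: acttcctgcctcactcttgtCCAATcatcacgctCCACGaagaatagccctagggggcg
Calr, chr19:40213117-40213173, plus strand: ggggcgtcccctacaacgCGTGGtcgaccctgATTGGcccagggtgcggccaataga

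The core of the heat shock element was searched as GAANNTTC, which reads the same on both strands. It showed the opposite pattern, with a match in 4 of 4 genes of the cytosol and mitochondria and in 0 of 4 ER genes, against 8.59% of all windows. Dnaja1 and Hspa8 had 2 matches each and Hsph1 and Hspd1 had 1 each. One match of each gene is shown, with the fixed letters of the core in capitals.
Hsph1, chr12:10427317-10427364, plus strand: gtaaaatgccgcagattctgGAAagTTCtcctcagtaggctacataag
Hspa8, chr8:50080444-50080491, plus strand: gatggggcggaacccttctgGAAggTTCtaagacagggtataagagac
Dnaja1, chr5:60638203-60638250, plus strand: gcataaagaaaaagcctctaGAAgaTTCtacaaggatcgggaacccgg
Hspd1, chr9:64084247-64084287, minus strand: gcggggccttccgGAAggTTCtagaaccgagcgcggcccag

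Counted from the gene start at 0 with bases before it negative, the ER stress element began at -43 in Hspa5, at -230 in Canx, at -232 in Calr, and at -176 and -72 in Hsp90b1. CCAAT alone, whose matches include one arm of every ER stress element, was in 6 of the 8 windows and in 37.5% of all windows. The unfolded protein response element TGACGTGG was in 0 of the 8 and in 0.595% of all. A match describes letters in a window, and the absence of a match says only that these letters were not in this window. The ER stress and heat shock elements are known from chaperone genes, as described above, so matches here are not an independent finding. The shares of all windows are given for scale only.

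**Figure D1:**
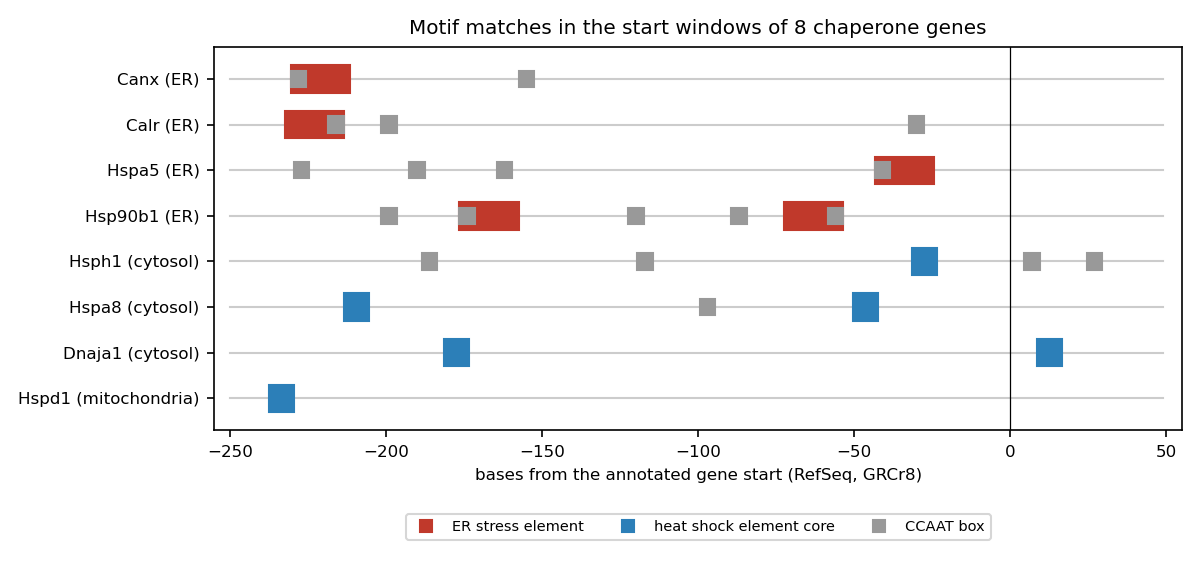
Motif matches in the start windows of the 8 chaperone genes with a RefSeq window, by distance in bases from the annotated gene start. Red bars are ER stress elements, blue bars heat shock element cores and grey bars CCAAT boxes. Red bars lie in the 4 ER genes alone among these 8, and blue bars in the 4 genes of the cytosol and mitochondria alone.

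The arrays were comparable in overall level, with medians between 2208 and 2310. The 2 arrays of a region correlated at r of 0.992 in the CPU, 0.988 in the NA, 0.977 in the VTA, 0.952 in the PFC and 0.939 in the AMY over 4914 tested probe sets. The region labels were checked against marker genes. Th, which makes the dopamine precursor, read 7544 and 6363 in the VTA and at most 2884 elsewhere, the dopamine receptor Drd1 read 10904 and 11001 in the CPU, and Cck, abundant in cortical neurons, read 27640.2 and 28113 in the PFC. The dopamine transporter Slc6a3 read 4552 and 3268 in the VTA and overlapped the other regions, at 2977 to 3756. Exact zeros were treated as missing. They were most frequent on the PFC cocaine array, with 226 of 593, and none fell on a tested chaperone probe set. Of the 25 chaperone probe sets, 22 lay in the upper 60% by mean index and were tested.

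Chaperones of the ER were highest in the VTA, the region of the dopamine neurons. Canx probe set rc_AI010725_g_at had an index of 15400.5 on the cocaine array and 17052 on the saline array of the VTA. In the order cocaine then saline, it read 8907 and 9416 in the AMY, 8446 and 10075 in the CPU, 9365 and 11276 in the NA, and 6829.9 and 9741 in the PFC. Both VTA values lay above all other 8, and the other 4 regions overlapped. As means over the 2 arrays of a region, the order was 16226 ± 1168 in the VTA, 10320.3 ± 1352 in the NA, 9260.3 ± 1152 in the CPU, 9161 ± 359 in the AMY and 8286 ± 2059 in the PFC (SD, n = 2 each), where no neighbours after the VTA differed beyond their spread. Against the average of the 4 remaining regions the VTA stood 1.77-fold higher, with a log2 difference of 0.82 ± 0.09 (SE; limma, adjusted p = 0.00146). The other 4 Canx probe sets gave log2 differences of 0.57 ± 0.10 for L18889_at, 0.78 ± 0.09 for rc_AI010725_at, 0.80 ± 0.11 for rc_AA893328_at and 1.01 ± 0.19 for rc_AI235707_g_at. Their adjusted p in limma lay between 0.00161 and 0.0130. Of these, rc_AA893328_at passed the filter on low values only through its VTA arrays, so its call is fixed in part by the filter. The 4 other tested probe sets of calnexin passed the filter without the VTA, and 4 of 4 were called higher there. Without the VTA cocaine array the adjusted p of rc_AI010725_g_at was 0.052. In bulk tissue, more cells rich in an RNA and more of that RNA per cell cannot be told apart.

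Pdia3, the disulfide isomerase that works beside Canx and Calr, read 7044 and 7563 in the VTA (cocaine, then saline) with probe set X12355_s_at. Elsewhere its index was 4898 and 4089.9 in the AMY, 3886 and 4534 in the CPU, 4808 and 4367 in the NA, and 2779 and 4151 in the PFC. The VTA was 1.77-fold above the other regions (log2 difference 0.82 ± 0.15, limma, adjusted p = 0.0112), and both its arrays lay clear of the other 8. Hspa5, the master Hsp70 of the ER, read 8747 and 9632 in the VTA with M14050_s_at. It read 6645 and 5067 in the AMY, 4468 and 5707 in the CPU, 5579 and 5937 in the NA, and 3889 and 5425 in the PFC, again with no overlap with the VTA. Its VTA difference was 1.74-fold (log2 0.80 ± 0.15, limma, adjusted p = 0.0132). The calls of Pdia3 and Hspa5 were lost without either VTA array, with adjusted p in limma of 0.136 to 0.173, and without the filter on low probe sets, with 0.0794 and 0.0861.

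Hsp90b1, the Hsp90 of the ER, depended on the probe set. AA685903_at read 5192 and 5461 in the VTA, against 3276 and 3529 in the AMY, 2866 and 3493 in the CPU, 3514 and 4313 in the NA, and 2493 and 3547 in the PFC. S69316_s_at read 4728 and 5059 in the VTA and between 2883 and 3617 on the other 8 arrays. Their VTA log2 differences were 0.67 ± 0.10 and 0.55 ± 0.08 (limma, adjusted p = 0.00445 and 0.00332). The brightest probe set, S69315_at, was almost level, with 14968 and 14817 in the VTA and between 13704 and 14688 elsewhere, and its difference of 0.08 ± 0.07 (limma, adjusted p = 0.68) turned to -0.06 after quantile normalization.

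Calr, the soluble partner of calnexin, showed the same dependence. X53363cds_s_at read 5359 and 5364 in the VTA and between 2461 and 4507 elsewhere, a log2 difference of 0.66 ± 0.15 (limma, adjusted p = 0.0301). D78308_g_at read 12914 and 13259 in the VTA and between 8071 and 11647 elsewhere, with 0.39 ± 0.11 (limma, adjusted p = 0.0702). D78308_at, which reached 23700.4 and 23504 in the VTA and between 18644 and 23473 elsewhere, gave 0.17 ± 0.08 (limma, adjusted p = 0.307). For both genes the brightest probe set had the smallest VTA difference, and D78308_at and S69315_at were the 2 brightest of all 25 chaperone probe sets. Whether the index is compressed at such levels was not tested.

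Hspd1, the mitochondrial Hsp60, was also highest in the VTA. With rc_AA858640_s_at it read 12510 and 12940.0 in the VTA. It read 7049.99 and 9265 in the AMY, 9015 and 9773 in the CPU, 8729 and 8947 in the NA, and 5927 and 7058 in the PFC. The VTA was 1.57-fold above the other regions (log2 difference 0.65 ± 0.09, limma, adjusted p = 0.00363). Its second probe set, X54793_at, read 11055 and 11708 in the VTA and between 5024 and 8898 elsewhere (0.61 ± 0.13, limma, adjusted p = 0.0202). Without the VTA cocaine array the first probe set had an adjusted p of 0.096 in limma.

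Of the 7 cytosolic probe sets, 2 passed as higher in the VTA. Hsph1, the nucleotide exchange partner of Hsp70, read 9558 and 9407 in the VTA with rc_AI236601_at, inside the range of the other regions. It read 5574 and 10298 in the AMY, 9612 and 11879 in the CPU, 8736 and 9085 in the NA, and 6099 and 7467 in the PFC. Its VTA difference was 0.18 ± 0.16, and that of AA108277_at, which read between 1833 and 3324 over all 10 arrays, was 0.15 ± 0.13 (limma, adjusted p = 0.666 and 0.661). Without the VTA cocaine array the first of these was -0.02.

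Dnaja1, a J-domain partner of Hspa8, read 11001 and 11218 in the VTA with U53922_at. It read 4921 and 10399 in the AMY, 10763 and 10599.7 in the CPU, 7752 and 9469 in the NA, and 7122 and 7531 in the PFC, so the CPU came close to the VTA and the 2 AMY arrays lay far apart (VTA log2 difference 0.42 ± 0.19, limma, adjusted p = 0.279). Its other probe set, rc_AA800551_at, read 5868 and 6851 in the VTA and between 3147 and 5433 elsewhere, and passed with 0.56 ± 0.13 (limma, adjusted p = 0.0349). Dnaja2, the second J-domain partner, had VTA differences of 0.43 ± 0.11 with rc_AI170685_at, 0.35 ± 0.11 with rc_AI170685_g_at and 0.32 ± 0.13 with U95727_at (limma, adjusted p = 0.0376, 0.0821 and 0.186). Its rc_AI170685_at read 6349 and 6508 in the VTA and between 3601 and 5541 elsewhere. Without the AMY cocaine array, U53922_at of Dnaja1 and rc_AI170685_g_at of Dnaja2 passed as well, with 0.29 and 0.30, and without the AMY saline array with 0.54 and 0.41.

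**Figure D2:**
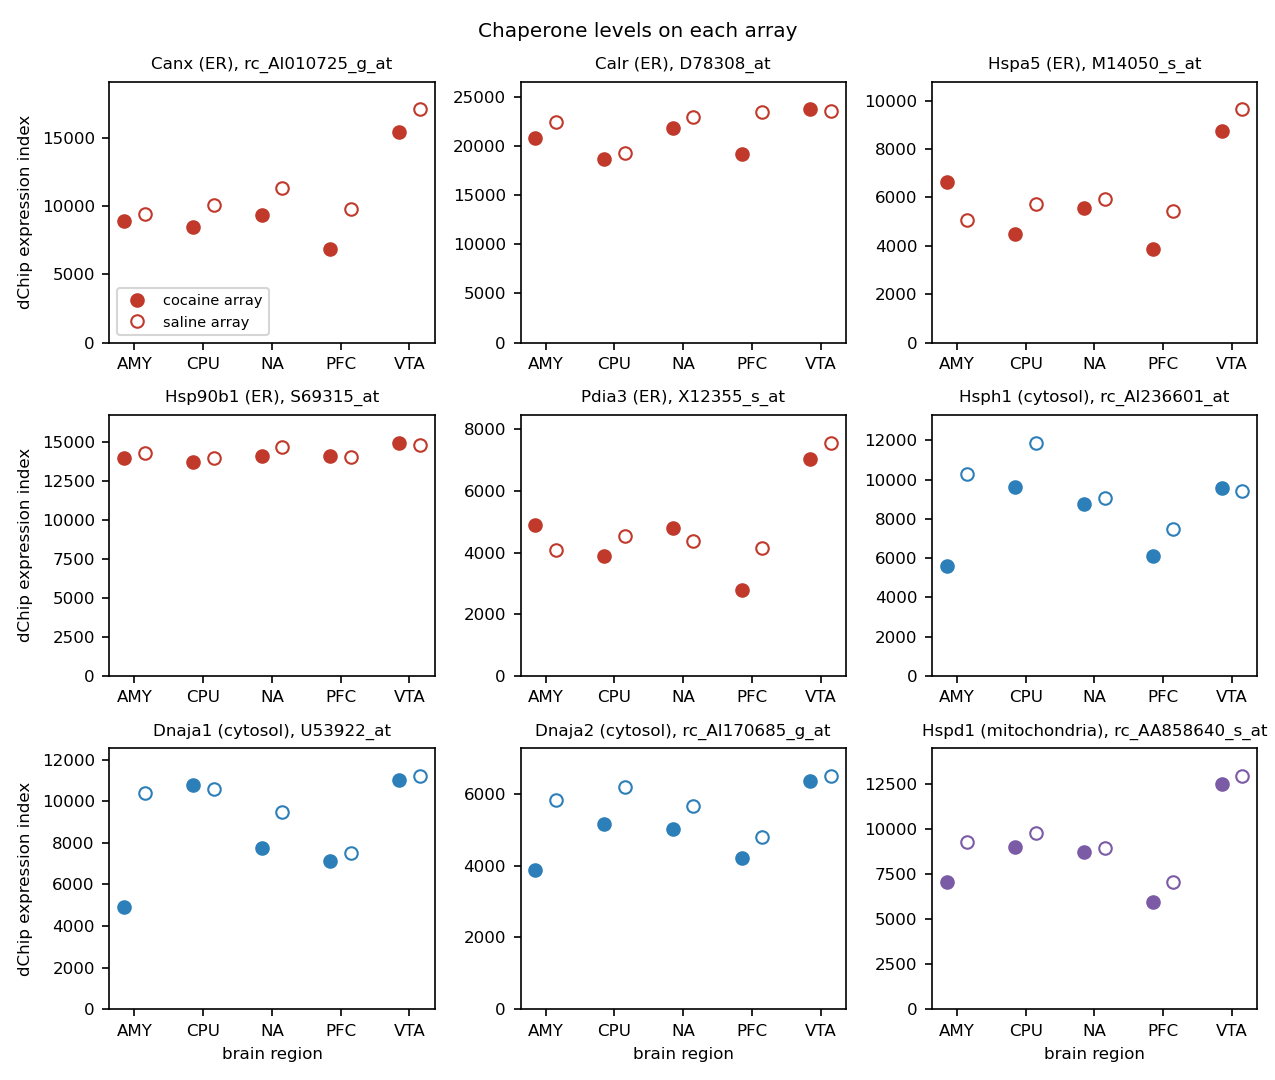
Expression index (dChip, linear scale from 0) of the brightest tested probe set of 9 chaperone genes in each region. Filled circles are the cocaine array and open circles the saline array of a region, 1 array each. Canx, Hspa5, Pdia3 and Hspd1 are clearly highest in the VTA, S69315_at of Hsp90b1 is nearly level, and the cocaine and saline values of Hsph1 and Dnaja1 in the AMY lie far apart.

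Counted over probe sets, 14 of the 22 tested passed as higher in the VTA, against 7.86% of all 5232 probe sets in this fit. They were 10 of 13 in the ER, 2 of 7 in the cytosol and 2 of 2 in the mitochondria, and they belonged to 8 of the 9 genes, all but Hsph1. The median VTA log2 difference was 0.67 in the ER with a range of 0.08 to 1.01, 0.35 in the cytosol with a range of 0.15 to 0.56, and 0.63 in the mitochondria, against 0.02 over all probe sets tested. The VTA difference was above 0 in 22 of 22, or 21 of 22 after quantile normalization, against 57.7% of all. Both VTA arrays lay above all other 8 arrays in 20 of the 22, the exceptions being both probe sets of Hsph1, against 13.2% of the 4914 probe sets with values on all 10 arrays. Leaving out rc_AA893328_at of Canx, which the filter kept only through its VTA arrays, 13 of 21 passed as higher in the VTA, and 9 of 12 in the ER. The difference between compartments was not tested, because the genes were chosen. That choice was made with cocaine results of these arrays in view, and the region means include the cocaine arrays. The median log2 ratio of cocaine over saline of the 22 was -0.38 in the PFC, -0.21 in the CPU and -0.13 in the NA. It was -0.09 in the AMY and -0.04 in the VTA. These VTA counts are therefore not independent of the choice of genes.

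The VTA was compared with the other regions on cocaine arrays and on saline arrays separately, as a description. Among cocaine arrays the median difference was 0.80 in the ER, 0.42 in the cytosol and 0.68 in the mitochondria. Among saline arrays it was 0.56, 0.25 and 0.58, with 13 of 13 ER, 6 of 7 cytosolic and 2 of 2 mitochondrial probe sets above 0. The count of 14 rested on both VTA arrays: 0 passed without the cocaine array and 6 without the saline array. Without the filter on low probe sets 6 passed.

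Other measures were also read in the VTA, and some of them overlapped with other regions. Of the probe sets of oligodendrocyte markers, 9 of 11 were higher in the VTA, with summed indices of 176385 and 148589 there, against 84741 to 173247 elsewhere, and none was at 0. Their median VTA log2 difference was 0.59. In the CPU the sums were 157949 and 173247, 4 of 11 were higher and the median difference was 0.35. Dopamine neuron markers passed as higher in the VTA in 2 of 6 probe sets (sums 31017 and 24020.4, against 13207 to 20698), astrocyte markers in 2 of 14 and neuron markers in 0 of 7. The ratio of 3′ to 5′ signal of actin, a sign of RNA quality, was 1.28 and 1.22 in the VTA and between 1.19 and 1.70 elsewhere. The part of cell composition and RNA quality in the chaperone difference was not tested.

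**Figure D3:**
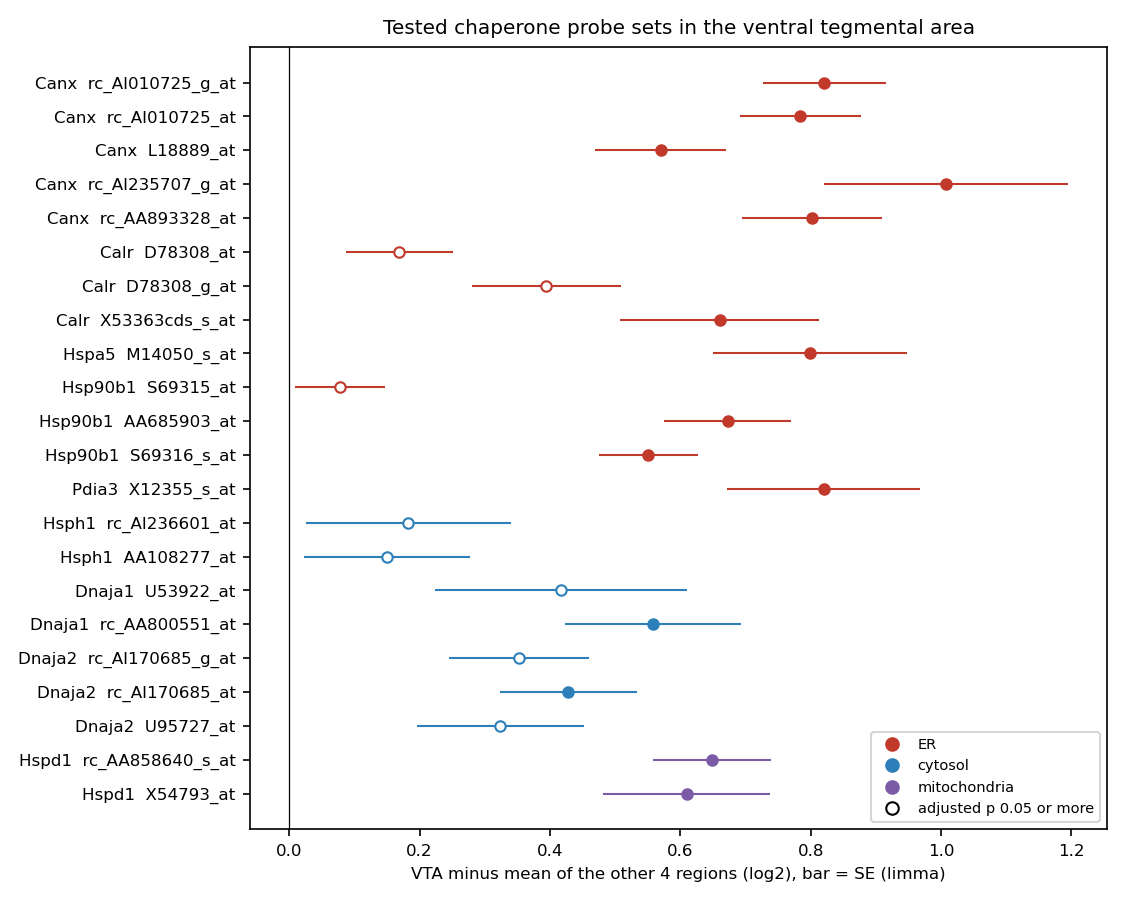
Log2 difference between the VTA and the mean of the other 4 regions for the 22 tested chaperone probe sets, with bars for the standard error in limma. Filled circles passed at an adjusted p under 0.05 and open circles did not. ER and mitochondrial probe sets reach from 0.08 to 1.01, cytosolic ones from 0.15 to 0.56.

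Over all regions together, the F test of limma passed in 9 of 22 probe sets, 8 of 13 in the ER, 0 of 7 in the cytosol and 1 of 2 in the mitochondria, against 9.31% of all. Without rc_AA893328_at of Canx it was 8 of 21. The split between ER and cytosol was not seen in the further chaperone lists described below. There the F test passed in 0 of 16 ER folding, 7 of 32 cytosolic and 1 of 11 mitochondrial probe sets. Among the members, the probe sets were as follows. All 5 probe sets of Canx, AA685903_at and S69316_s_at of Hsp90b1, Pdia3 and rc_AA858640_s_at of Hspd1 made up the 9. This count was sensitive to single arrays. It was 18 without either AMY array, 3 without either NA array, 1 without the VTA saline array, and 0 without the VTA cocaine array or either CPU array.

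The PFC held the lowest region mean in 17 of the 22 probe sets, the CPU in 4 and the AMY in 1. The matching share over all tested probe sets was not counted, so nothing is read from the 17. The PFC difference was below 0 in 22 of 22, or 20 of 22 after quantile normalization, against 49.4% of all, with a median log2 difference of -0.39 for the chaperones and 0.00 for all. Passing as lower were 6 of 22, against 3.8% of all: both probe sets of Hspd1 (-0.57 ± 0.09 and -0.56 ± 0.13), rc_AA800551_at of Dnaja1 (-0.60 ± 0.13), rc_AI010725_at and rc_AI010725_g_at of Canx (-0.49 ± 0.09 and -0.42 ± 0.09), and S69316_s_at of Hsp90b1 (-0.33 ± 0.08), with adjusted p in limma between 0.0143 and 0.04997. Both PFC arrays lay below all other 8 in 5 of 22, against 5.84% of all. The genes were chosen with cocaine results of these arrays in view. In the PFC, 21 of 22 probe sets were lower on the cocaine array than on the saline array. The PFC means include that cocaine array, so these PFC counts are not independent of the choice of genes. The count rested on single arrays, with 17 without the AMY cocaine array, 14 without the AMY saline array, 2 without the VTA saline array, 1 without the VTA cocaine or NA saline array, and 0 without the PFC cocaine, NA cocaine or either CPU array. In the AMY, CPU and NA, 0 chaperone probe sets passed in either direction, against 0.612%, 4.11% and 0.593% of all. Their median differences there were -0.15, -0.07 and 0.01.

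As a summary of compartments, log2 levels of the brightest tested probe set were averaged over the genes of each. The difference between the ER and cytosol means depends on the probes used, so only its variation between arrays is described. It was 0.54 and 0.60 in the VTA (cocaine, then saline), 0.35 and 0.54 in the PFC, 0.45 and 0.34 in the NA, and 0.02 and 0.02 in the CPU. In the AMY it was 1.03 on the cocaine array and 0.09 on the saline array, the widest gap within a region. ER levels lay lowest relative to cytosolic ones in the CPU, where both arrays gave the same value. Against the mean of the other regions, the VTA was higher by 0.54 in the ER, 0.32 in the cytosol and 0.65 in the mitochondria.

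Other chaperones, taken from lists written with earlier results of these data known, were read against the 7.86% of all probe sets that passed as higher in the VTA. Of 16 tested probe sets for 11 further ER folding genes, 5 were higher in the VTA and 0 lower, and the difference was above 0 in 16 of 16 with a median of 0.31. The 5 were Ppib, a prolyl isomerase (0.63 ± 0.14), the disulfide isomerases Pdia6 (0.60 ± 0.12) and P4hb (0.43 ± 0.09), the translocon subunit Sec61b (0.34 ± 0.09), and Hspa13, an Hsp70-like protein of microsomes (0.31 ± 0.08), with adjusted p in limma between 0.0167 and 0.0440. Pdia6 read 8825 and 9718 in the VTA and between 5126 and 7493 elsewhere. Further probe sets of Ppib and P4hb did not pass. For Ppib, rc_AA818487_s_at had 0.27 ± 0.14 (limma, adjusted p = 0.369). For P4hb, M21476_s_at had 0.26 ± 0.08 and X02918_g_at 0.28 ± 0.075 (limma, adjusted p = 0.0890 and 0.0505).

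Of 32 probe sets for 17 further cytosolic genes, 6 were higher in the VTA and 1 lower, with a median difference of 0.26. Stip1, which links Hsp70 to Hsp90, read 4670.4 and 4769 in the VTA and between 2487 and 3537 elsewhere (0.72 ± 0.08, limma, adjusted p = 0.00158). Both probe sets of St13, a cofactor of Hsp70, gave 0.73 ± 0.13 and 0.61 ± 0.12, both of the small heat shock protein Cryab gave 0.92 ± 0.16 and 0.69 ± 0.13, and Cdc37, which brings kinases to Hsp90, gave 0.39 ± 0.07 with D26564_at. The other Cdc37 probe set, D26564_g_at, had 0.30 ± 0.11 and did not pass (limma, adjusted p = 0.136). The cytosolic probe set that was lower was that of Dnajb5, a J-domain protein, at -0.39 ± 0.08. Dnajb5 and Hspa13 were named after their values were seen. For mitochondrial proteins 1 of 11 was higher, near the share of all. It was rc_AI170613_g_at of the Hsp60 partner Hspe1 with 0.41 ± 0.09, which was also lower in the PFC at -0.48. The other Hspe1 probe set, rc_AI170613_at, had 0.42 ± 0.16 in the VTA and did not pass (limma, adjusted p = 0.174). Of the 14 probe sets for 9 stress regulators, among them Hsf1, Trib3, Eif2ak3 and the NF-Y subunits Nfya, Nfyb and Nfyc, 0 passed in any region, and their median VTA difference was 0.01. The VTA differences with the smallest p of the F test among them were 0.15 ± 0.08 for rc_H31287_g_at of Trib3, -0.01 ± 0.09 for M60617_g_at of Nfyb, -0.12 ± 0.07 for Nfyc and 0.20 ± 0.19 for Nfya. Among mitochondrial proteins, Trap1, the Hsp90 of mitochondria, had 0.16 ± 0.08, the prohibitin Phb2 0.27 ± 0.10, and the import receptor Tomm20 0.03 ± 0.12 with U21871_at, none of which passed.

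**Figure D4:**
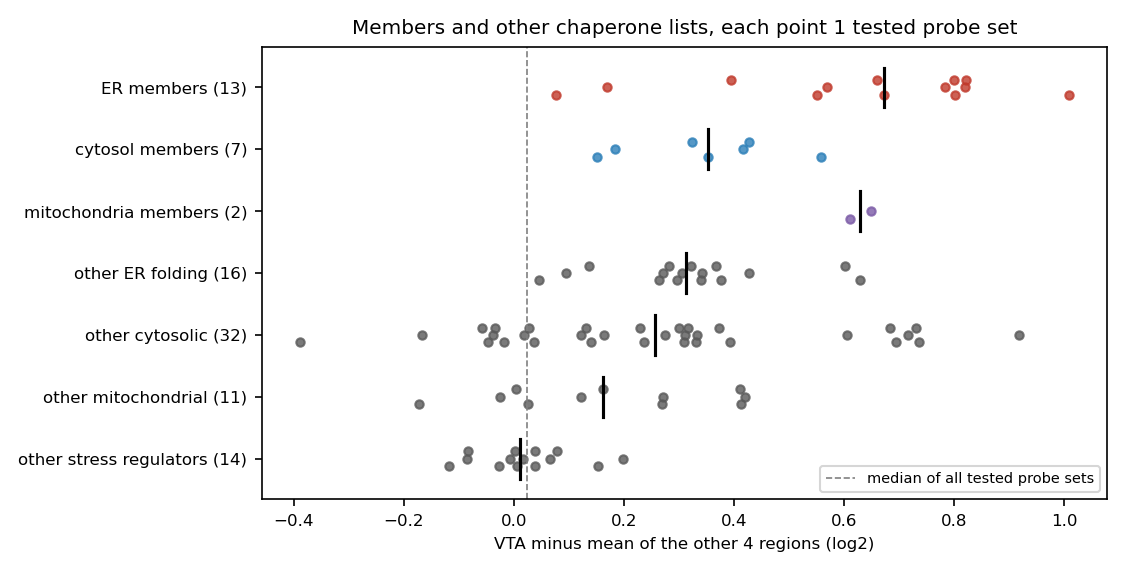
Log2 difference between the VTA and the other 4 regions for chaperone members by compartment and for 4 further lists, 1 point for each tested probe set, with the number tested in brackets. Vertical bars are medians and the dashed line is the median of all tested probe sets, 0.02. The ER members reach highest, and stress regulators scatter around the dashed line.

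The non-member genes whose log2 values ran most alike with Canx over the 10 arrays, among 4048 probe sets, were Slc25a4, the ADP/ATP carrier of mitochondria (Pearson r = 0.96), Bad, a regulator of apoptosis (r = 0.96), and Ppt1, a lysosomal thioesterase (r = 0.96). For Hspd1 they were Sod1, the cytosolic superoxide dismutase (r = 0.98), St13 (r = 0.98) and Ndufab1, the mitochondrial acyl carrier protein (r = 0.96). Sod1 read 21442 and 22422 in the VTA and between 7920.2 and 15077 elsewhere. These correlations share the 10 arrays and are carried in part by the difference between the VTA and the rest.

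With cocaine, chaperone values were lower on average than with saline, as the choice of several of these genes implies. The largest mean log2 ratios of cocaine over saline across the 5 regions were -0.30 ± 0.36 for rc_AI236601_at of Hsph1, -0.29 ± 0.34 for X53363cds_s_at of Calr, -0.29 ± 0.46 for U53922_at of Dnaja1, -0.25 ± 0.17 for AA685903_at of Hsp90b1, -0.25 ± 0.16 for rc_AI010725_g_at of Canx and -0.25 ± 0.21 for rc_AI170685_g_at of Dnaja2 (SD, n = 5 regions). Of these 6, 4 were smaller in size without the AMY pair: the mean was then -0.16 for Hsph1, -0.15 for Calr, -0.09 for Dnaja1 and -0.16 for Dnaja2. The mean ratio was below 0 in 22 of 22, or 20 of 22 after quantile normalization, against 54.8% of all 5244 probe sets tested, with a median of -0.15 for the chaperones and -0.01 for all. By compartment the median was -0.13 in the ER, -0.20 in the cytosol and -0.15 in the mitochondria. In limma with region as a block, 0 of 22 passed after adjustment, as did 0% of all, while 9 of 22 had an unadjusted p under 0.05, against 1.32% of all. The members were lower on the cocaine array in all 5 regions in 7 of 22, against 1.63% of all: rc_AI010725_g_at and rc_AI010725_at of Canx, X53363cds_s_at of Calr, AA685903_at of Hsp90b1, rc_AI170685_g_at and rc_AI170685_at of Dnaja2, and rc_AA858640_s_at of Hspd1. The genes were chosen with results of this contrast in view, several of them for lower values. These counts are not independent of that choice, so nothing is read from their distance to the shares of all probe sets.

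By region, and with the same limit, the median log2 ratio of the 22 was -0.38 in the PFC, with 21 of 22 lower on the cocaine array, where 48.0% of all tested probe sets were lower. It was -0.21 in the CPU with 20 of 22 lower (59.3% of all) and -0.13 in the NA with 21 of 22 (59.5%). In the VTA it was -0.04 with 16 of 22 lower (42.4%). In the AMY it was -0.09 with 13 of 22 lower (55.1%). The PFC cocaine array, which gave the largest median ratio, was also the one with 226 zeros, and the part of this in the ratios was not tested. Without the PFC and AMY pairs, an alternative added after seeing the data, the median over the members was -0.12.

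Of the further lists, the mean ratio of cocaine over saline was below 0 in 16 of 16 ER folding, 28 of 32 cytosolic, 10 of 11 mitochondrial and 6 of 14 stress regulator probe sets. Their medians were -0.06, -0.09, -0.09 and 0.01, and 0 passed in limma. Over all tested probe sets 54.8% were below 0, with a median of -0.01. The lists were written with earlier results of these data known, so nothing is read from the distance to that share. The largest in the ER list were Ppib at -0.29 ± 0.30, Pdia4 at -0.24 ± 0.61, rc_AI009098_at of Hyou1 at -0.12 ± 0.45 and C06598_at of Fkbp2 at -0.11 ± 0.37 (SD, n = 5 regions). In the cytosolic list they were St13 at -0.28 ± 0.25, S45392_at of Hsp90ab1 at -0.17 ± 0.21, and Fkbp4 and Dnaja4 at -0.40 and -0.23, both of which lacked a value on at least 1 array. In the mitochondrial list Ppif was at -0.17 ± 0.50, D63411_s_at of Tomm20 at -0.13 ± 0.27, Trap1 at -0.11 ± 0.08 and rc_AI170613_at of Hspe1 at -0.10 ± 0.37. Among stress regulators, Nfya was at 0.18 ± 0.43, X83094cds_at of Hsf1 at -0.16 ± 0.52, AF020618_at of Ppp1r15a at 0.10 ± 0.32 and M60617_g_at of Nfyb at -0.07 ± 0.11. Except for Trap1 and St13, these means were smaller than their SD over regions or lacked one.

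**Figure D5:**
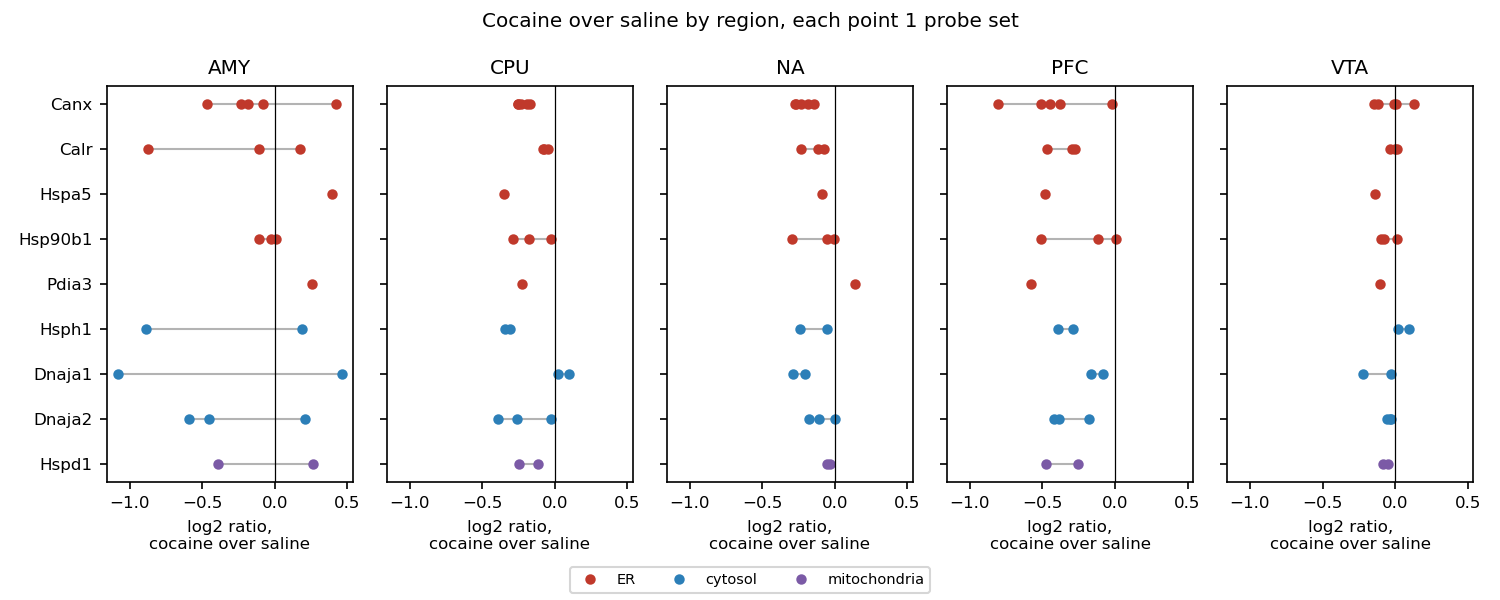
Log2 ratio of cocaine over saline in each region, 1 point for each tested probe set and 1 row for each gene, with a line joining the probe sets of a gene. Points left of 0 are lower on the cocaine array. In the AMY the probe sets of 1 gene lie on both sides of 0 for all 7 genes with several, and in the CPU and NA for none of them.

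In the AMY the probe sets of a gene went opposite ways. U53922_at of Dnaja1 read 4921 on the cocaine array and 10399 on the saline array, a log2 ratio of -1.08, while rc_AA800551_at of the same gene read 5433 on the cocaine array and 3948 on the saline array, a ratio of 0.46. X53363cds_s_at of Calr was at -0.87 and D78308_g_at at 0.18, and rc_AI236601_at of Hsph1 was at -0.89 and AA108277_at at 0.19. All 7 of the 7 chaperone genes with several tested probe sets had ratios of both signs in the AMY, against 44.8% of all genes with several. In the other regions the same count was 0 in the CPU (42.6% of all), 0 in the NA (43%), 1 in the PFC (39.9%) and 3 in the VTA (38.1%). The chaperone genes were not matched with other genes on the number of probe sets, which affects this count and the spread given next. The median spread between probe sets of a gene in the AMY was 0.89 for the chaperone genes and 0.26 for other genes. A cocaine ratio of these genes in the AMY therefore depends on the probe set read, and the cause was not tested. The AMY arrays had the lowest correlation of any pair. Their ratio of 3′ to 5′ signal of actin was 1.36 on the cocaine array and 1.53 on the saline array. In the same order it was higher in the CPU (1.70 and 1.63) and the PFC (1.61 and 1.65). It was lower in the NA (1.34 and 1.19) and the VTA (1.28 and 1.22). Over the 10 arrays the 2 probe sets of Dnaja1 correlated at r = 0.29, while pairs of Canx probe sets lay between 0.79 and 0.98.

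The remaining 3 probe sets were below the filter and were not tested. S63521_i_at of Hspa5 read 939 and 1561 in the VTA and between 211 and 759 elsewhere, S63521_r_at of Hspa5 read between 0 and 76.8 over all arrays, and rc_AA892637_at of Pdia3 read 1525 and 1414 in the VTA and between 863 and 1239 elsewhere. The highest mean index among these 3 was 1091 and the lowest among the tested 22 was 1993, on either side of the limit of 1808.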

How the data were processed

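Total RNA of rat brain was measured on 10 arrays, 1 for each of 5 regions and 2 treatments, grouped by the sample labels. The values are intensities, which the authors deposited as the expression index of dChip, per the labels; the sources used here give no dChip version, model or scaling. Precision is limited by there being 10 arrays. No further scaling was applied. The 59 control probe sets were left out, exact zeros were treated as missing, values above 0 but under their 20th percentile (1028) were raised to it, and log2 was taken. Testing kept the upper 60% of probe sets by mean index, 5244 in all and 5232 in the region fit, and used limma 3.58.1 (R 4.3.3), with a trend on intensity and Benjamini-Hochberg adjustment over all tested probe sets at 0.05. Regions were compared with treatment as a term, each against the mean of the other 4, and cocaine with saline with region as a block, with 4 residual degrees of freedom each. Probe sets were named from GEO's platform annotation: 7006 of 8740 had 1 symbol, 308 several and 1426 none, and only those with 1 were named.

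The members and the lists were chosen with earlier results of these data known. Named were every member probe set, from each further list up to 4 probe sets with the smallest p of the region test and up to 4 with the largest cocaine ratio, 1 per gene, and the 3 genes most alike with Canx and Hspd1. Likeness to Hspa8 could not be computed, since it has no probe set of its own. Protein sequences were not analysed here. Alternatives changed the handling of zeros, scaling, floor, filter, intensity trend, region block, the probe set standing for a gene, and each array in turn. The tests were checked on data with known changes before use.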

Additional observations from a re-analysis of the deposited data

Results flagged for a closer look

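Of the 22 tested chaperone probe sets, 1 had a cocaine ratio in 1 region that stood apart from its ratios in the other 4. U53922_at of Dnaja1 was at -1.08 in the AMY, against 0.02 in the CPU, -0.29 in the NA, -0.08 in the PFC and -0.03 in the VTA, a gap to the next value larger than Dixon's 95% limit of 0.71 of the whole range for 5 values. Chance marks about 1 in 20 such groups, and 22 were looked at. The second Dnaja1 probe set was at 0.46 in the AMY.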

How the results depend on the processing

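Over the alternatives, 264 values of counts and summaries kept their direction and side of the threshold, or for a count stayed within 1.5 times, 22 were weaker, 8 stronger and 2 moved. For single genes it was 264, with 8 weaker, 4 stronger, 1 moved and 2 reversed. Much of this sameness was fixed in advance. Many of the counts started at 0 and could only rise. No tested chaperone probe set had a zero or a value under the floor. The changes of zeros, floor, filter, trend and block therefore left the log2 differences of these probe sets as they were. The counts of chaperone probe sets by region moved most. As lower in the PFC, 6 passed, but 1 with zeros raised to the floor, 2 with median scaling, 1 with quantile normalization, 3 without the intensity trend and 0 without the filter. Calls over all probe sets fell as well. The F test over all passed in 487, but in 285 with zeros raised to the floor and 185 without the filter. It passed in 411 with median scaling, 391 with quantile normalization and 466 without the intensity trend. PFC calls over all probe sets were not counted under these alternatives, nor was any share with 1 array left out. Of the chaperone probe sets, 6 passed as higher in the VTA and 1 in the F test without the filter. Leaving out 1 array, the F test passed in 0 to 18, the VTA as higher in 0 to 18, the PFC as lower in 0 to 17, the CPU as lower in 0 to 1 and as higher in 0 to 2, and the AMY as lower in 0 to 4. The mean VTA difference of the ER genes, 0.54, was 0.42 with quantile normalization and 0.65 with all probe sets of a gene averaged. The VTA difference turned to -0.061 for S69315_at of Hsp90b1 with quantile normalization and to -0.021 for rc_AI236601_at of Hsph1 without the VTA cocaine array, and was 0.387 without the VTA saline array. The cause was not tested.

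The cocaine contrast called 0 chaperone probe sets in limma under every alternative run. Under the changes of zeros, scaling, floor, filter and intensity trend, 5 to 9 had an unadjusted p under 0.05. These counts are not independent of the choice of the genes, and nothing is read from them. The cocaine and saline arrays were paired by region through the block, and 0 passed without it as well.

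With 2 arrays a region and 1 a region and treatment, a VTA difference rests on 2 arrays and a cocaine ratio within a region on 1 pair, with no replicate of its own. The 3 dimmest chaperone probe sets lay below the filter and were not tested.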

Other observations

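The ER stress element searched in the start windows occurred in 21 gene symbols of the rat, 4 of them among the chaperones described. Of the other 17, the array held a tested probe set for 2. Ero1b, the oxidase that renews the disulfide isomerases, read 2745 and 2768 in the VTA and between 2489 and 2874 elsewhere, a VTA log2 difference of 0.05 ± 0.08 (limma, adjusted p = 0.911). Hnrnpa3, an RNA-binding protein, had 0.35 ± 0.22 and 0.15 ± 0.09 with its 2 probe sets (limma, adjusted p = 0.468 and 0.464), the second without the PFC cocaine array, where it was listed at 0. Neither gene passed in the VTA, and their difference from the chaperones was not tested. The element was also in the windows of Creld2, Derl3 and Dnajc3 of the ER and of Xbp1, a factor that binds such elements, none of which had a tested probe set.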
